A study of Drosophila melanogaster with 28 samples.

Results

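Embryos of nejEP1179, an insertion allele of the CBP gene nej, were compared with embryos of the control stock w1118 at 14 to 16 h of development. The comparison took the 4 nejEP1179 and the 4 w1118 libraries of the count table for that age, 8 of the 28 samples of the series, and the same table held 4 libraries of a second allele, nej3. The nejEP1179 stock carries a P element of the EP type, P{w[+mC]=EP}, with a mini-white eye colour marker in nej, while w1118 carries a deletion in the white gene. Mutant lines were kept over GFP-marked balancer chromosomes, eggs were collected for 2 h and aged at 25 °C, and 20 to 30 mutant embryos per sample were chosen by morphology and lack of GFP. No treatment was given to any group, whole embryos were homogenized, and no source used here describes the stocks as isogenic, so the allele and its genetic background cannot be told apart. nej lies on the X chromosome, the study describes its embryos as a mix of males and females, and the sex of each sample is not given in the sources used here.

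CBP is a lysine acetyltransferase and coactivator that is recruited by many transcription factors and acetylates histone H3 at lysines 18 and 27 near active promoters and enhancers. In the fly embryo it acts with the effectors of Dpp, Wg and Hh signalling, and its loss is lethal. The study used the nej alleles to ask whether CBP takes part in the choice of mRNA 3′ ends, which counts per gene do not measure. What they do measure is the number of reads counted for each gene, called its level here. A shorter or longer 3′ end could change that number too. Levels are given as CPM, counts per 1000000 of the scaled library, and a value of 4 libraries is listed in the order of their replicate numbers. Changes are log2 fold changes of nejEP1179 over w1118 ± SE, and a gene is said to have risen or fallen where its p-value from edgeR's quasi-likelihood test, adjusted by the Benjamini-Hochberg method over 10397 genes, was under 0.05.

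The total count was 13129082 to 21191494 in nejEP1179 and 17865742 to 21509453 in w1118. A library of each group stood apart from the rest. Replicate 4 of nejEP1179 was the shallowest, held 0.0343% of its counts in ribosomal RNA genes against 0.00517 to 0.00744% in the other 7, and had higher levels of long genes than the others. Replicate 4 of w1118 stood apart from the other w1118 libraries on the second principal component (23.3% of the variance) and had lower levels of long genes. These components came from all 12 libraries of the count table, nej3 included. The first (43.7%) separated the w1118 libraries from those of nejEP1179 and of nej3 alike. Within a group no pair of libraries was a copy of another. The study describes them as 4 biological replicates for each genotype, and whether these came from separate cultures is not stated. A p-value here covers only how far these libraries spread.

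Of 10397 genes tested, 2587 (24.9%) changed, 1306 upward (12.6%) and 1281 downward (12.3%). Most changes were small. The median size of a called change was 0.363 on the log2 scale, 1804 of the called genes (69.7%) lay within 1.5-fold, and 244 rose and 171 fell by over 2-fold. In 3109 genes (29.9%) the values of the groups did not overlap, among them 1169 of the genes that rose and 1160 of those that fell. Without both replicates 4, a choice made after seeing the data, 894 genes rose and 801 fell, and no called gene turned its direction.

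nej itself was higher in the nejEP1179 embryos. The gene (FBgn0261617, X 9665442 to 9687066 on dm6, minus strand, exonic length of 15932 bases) had 399, 369, 358 and 533 CPM in nejEP1179, against 257, 255, 253 and 232 CPM in w1118 (log2 change of 0.73 ± 0.10, adjusted p = 2.1e-04). The groups did not overlap, and replicate 4 was the highest nejEP1179 library. Without it the change was 0.59 (adjusted p = 1.2e-06), and without both replicates 4 it was 0.56. In nej3 the same transcript stood at 243 ± 11.3 CPM, and nejEP1179 was higher than nej3 as well (0.77 ± 0.10, adjusted p = 5.2e-04). A count over the whole gene does not show which part of it was read, so the level says nothing of how much CBP protein was made.

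The 9 tested genes within 100 kb of nej moved little. Lst8 and CG3106 fell, and the other 7 did not pass. Lst8, which encodes a subunit shared by the TOR complexes, had 24.6, 26.2, 24.6 and 20.5 CPM in nejEP1179, against 29.6, 29.2, 30.4 and 31.3 CPM in w1118 (log2 change of -0.33 ± 0.07, adjusted p = 0.0026). CG3106, an acyltransferase-like gene that lies beyond the 3′ end of nej, had 76.98, 80.6, 91.8 and 93.96 CPM in nejEP1179, against 105, 120.2, 108 and 102 CPM in w1118 (log2 change of -0.35 ± 0.09, adjusted p = 0.012). In both the groups did not overlap. The head gap gene btd (0.00, adjusted p = 0.98) and its neighbour Sp1 (-0.06, adjusted p = 0.55), a pair of zinc finger regulators, and the hexokinase gene Hex-A (0.13, adjusted p = 0.28) did not pass. Within 1000 kb of nej 19 of 138 genes rose and 14 fell, 23.9% of them, near the 24.9% over all genes. Lst8 overlaps the end of its neighbour Gga on the opposite strand, and reads there could be counted for either where strand was not used. CG3106 overlaps l(1)G0232 on the same strand by a short stretch, where strand does not tell their reads apart.

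**Figure D1:**
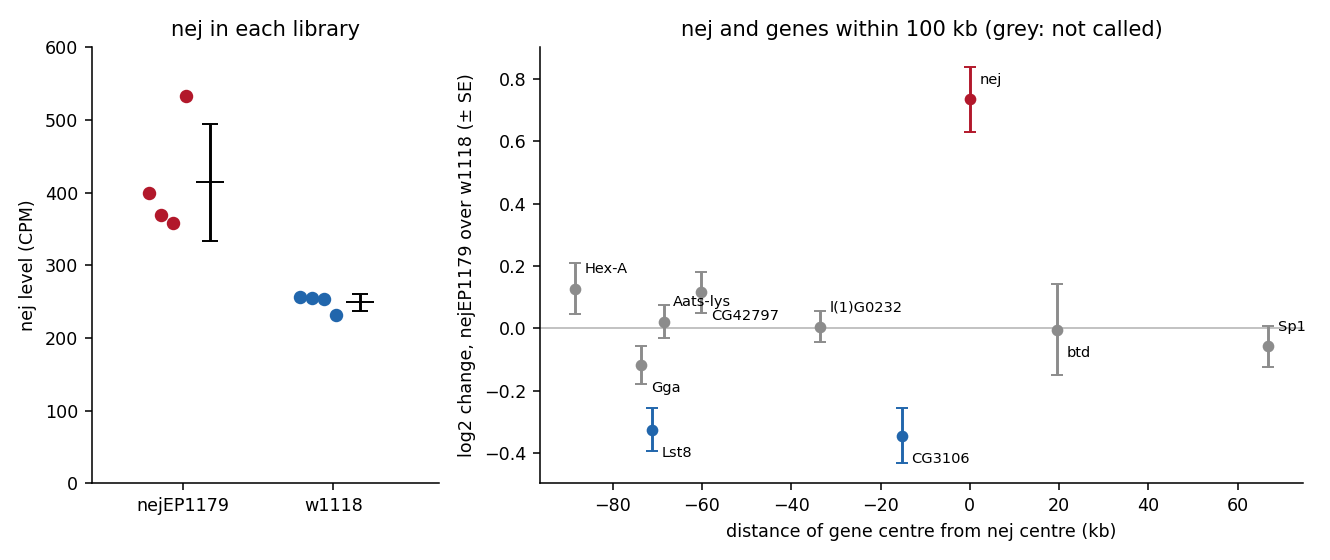
Levels of nej by library (CPM, nejEP1179 left of w1118, with the mean and SD beside the points) and the log2 change of the genes tested within 100 kb of it by distance from nej, with bars of 1 SE. nej was above every w1118 library in all 4 nejEP1179 libraries, and Lst8 and CG3106 were the neighbours that passed the test.

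Genes of the acetylation machinery around CBP changed in both directions. Of 23 tested writers, erasers and readers of acetyl marks, 3 rose, nej among them, and 4 fell (30.4%, beside 24.9% of all genes; 13% rose, near the 12.6% of all genes), with a median log2 change of -0.025 beside -0.0044 over all genes. Ada2a, an adaptor of the ATAC acetyltransferase complex, had 10.9, 10.6, 9.601 and 10.3 CPM in nejEP1179, against 18.8, 19.3, 20.2 and 20.9 CPM in w1118 (log2 change of -0.94 ± 0.08, adjusted p = 7.2e-07), with no overlap. The class I deacetylase gene Rpd3 fell by 0.21 on the log2 scale (65.3 ± 1.52 CPM in nejEP1179 and 75.6 ± 2.504 CPM in w1118, SD, n = 4 each, adjusted p = 0.0044), and the sirtuin gene Sirt4 by 0.52 (5.59 ± 1.05 CPM in nejEP1179 and 8.08 ± 0.594 CPM in w1118, adjusted p = 0.0084, 0.064 without both replicates 4). The bromodomain gene fs(1)h, the fly BET protein that binds acetylated histones, rose (467 ± 55.1 CPM in nejEP1179 and 379 ± 15.6 CPM in w1118, log2 change of 0.30 ± 0.07, adjusted p = 0.0039), but the rise did not pass once the trend of change with exonic length was removed (0.09, adjusted p = 0.086). The acetyltransferase genes Gcn5 (0.00, adjusted p = 0.95), Tip60 (-0.03, adjusted p = 0.84), mof (-0.01, adjusted p = 0.97) and chm (-0.07, adjusted p = 0.47) did not pass.

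Among genes with more than a numbered symbol and a mean of at least 5 CPM over the 8 libraries, the largest rise was that of Ipod, whose protein binds the tRNA methyltransferase Dnmt2 (FBgn0030187, X 10231002 to 10233080). It had 1029.5, 1274, 1259 and 1387 CPM in nejEP1179, against 5.29, 7.01, 6.01 and 6.198 CPM in w1118 (log2 change of 7.66 ± 0.15, adjusted p = 1.0e-12). Every w1118 library held under 10 CPM of it, and the groups did not overlap. The cytochrome P450 gene Cyp309a2 (FBgn0041337, 2L 2564886 to 2573037) had 51.2, 52.9, 53.6 and 47.8 CPM in nejEP1179, against 1.01, 0.426, 0.638 and 0.274 CPM in w1118. A second P450 gene, Cyp4p2 (FBgn0033395, 2R 9237512 to 9239831), had 17.8, 17.5, 18.3 and 20.2 CPM in nejEP1179, against 0.144, 0.332, 0.319 and 0.274 CPM in w1118. Both were near 0 in every w1118 library, with log2 changes of 6.41 ± 0.16 (adjusted p = 1.0e-12) and 6.07 ± 0.16 (adjusted p = 7.0e-13).

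The other large rises fell on genes of several kinds. TwdlU, a member of the Tweedle cuticle family that the annotation lists as a pseudogene, had 14.1, 17.6, 19.4 and 22.8 CPM in nejEP1179, against 0.481, 0.521, 0.638 and 0.713 CPM in w1118 (log2 change of 4.96 ± 0.21, adjusted p = 5.5e-10). PH4alphaSG2, a prolyl 4-hydroxylase subunit gene named for the salivary gland, had 28.1, 29.04, 21.8 and 25.4 CPM in nejEP1179, against 2.695, 2.56, 3.19 and 2.69 CPM in w1118 (log2 change of 3.22 ± 0.10, adjusted p = 3.7e-12). Tep4, a thioester protein of innate defence, had 115, 118, 105 and 127 CPM in nejEP1179, against 17.04, 14.4, 15.6 and 13.1 CPM in w1118 (log2 change of 2.95 ± 0.07, adjusted p = 7.0e-13). In each of these the lowest nejEP1179 library lay several-fold above the highest w1118 library. The double-stranded RNA-binding gene blanks, known from the male germline, averaged 15.4 ± 2.53 CPM in nejEP1179 and 1.75 ± 0.4203 CPM in w1118 (SD, n = 4 each, log2 change of 3.14 ± 0.18, adjusted p = 3.1e-09), and the chaperone gene Hsc70-2 averaged 18.5 ± 1.29 CPM in nejEP1179 and 2.12 ± 0.545 CPM in w1118 (log2 change of 3.11 ± 0.15, adjusted p = 4.1e-10). The peroxiredoxin copies Prx2540-2 (log2 change of 2.69 ± 0.24, adjusted p = 2.7e-05) and Prx2540-1 (log2 change of 2.07 ± 0.31, adjusted p = 0.0012) also rose, and reads may be shared between these near-identical genes. gfzf, which encodes a glutathione transferase domain joined to FLYWCH zinc fingers, had 92.2, 86.1, 87.4 and 89.8 CPM in nejEP1179, against 30.7, 31.2, 32.1 and 28.5 CPM in w1118 (log2 change of 1.54 ± 0.05, adjusted p = 5.9e-12).

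The cuticle gene Cpr49Ae (log2 change of 1.78 ± 0.40, adjusted p = 0.01) and the tetraspanin gene Tsp42En (log2 change of 1.60 ± 0.20, adjusted p = 5.0e-05) rose from low levels, to 13.1 and 8.899 CPM on average in nejEP1179, against 3.74 and 2.94 CPM in w1118. The small heat shock gene Hsp27 is a different case. It had 14.3, 64.96, 14.9 and 18.2 CPM in nejEP1179, against 7.70, 7.87, 7.01 and 7.295 CPM in w1118 (log2 change of 1.93 ± 0.54, adjusted p = 0.028), and most of the rise came from replicate 2. Without that library the change was 1.07 (adjusted p = 0.01), and the call was lost when any 1 of the 4 w1118 libraries was left out, with an adjusted p of up to 0.071.

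Several genes had no count in any library of 1 group. Victoria, a Turandot stress peptide gene (FBgn0053117, 2L 19912938 to 19913516), had 10.6, 9.06, 7.63 and 8.21 CPM in nejEP1179 and 0 in all 4 w1118 libraries, at least 243-fold higher when set against 3 counts over the w1118 group (adjusted p = 3.1e-09). The mitochondrial P450 gene Cyp12d1-d had 0.667, 1.66, 0.623 and 0.395 CPM in nejEP1179 and 0 in all 4 w1118 libraries, at least 22.9-fold higher (adjusted p = 0.001). This gene was picked after its values were seen, and its near-identical neighbour Cyp12d1-p rose as well (log2 change of 1.97 ± 0.43, adjusted p = 0.0034), so that reads can be divided between them. In the other direction CG9822 had 0 in all 4 nejEP1179 libraries, against 1.68, 1.56, 0.956 and 1.70 CPM in w1118, at least 34.9-fold lower (adjusted p = 2.0e-05). These bounds cover counting error only, since the reads carry no molecular identifiers.

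**Figure D2:**
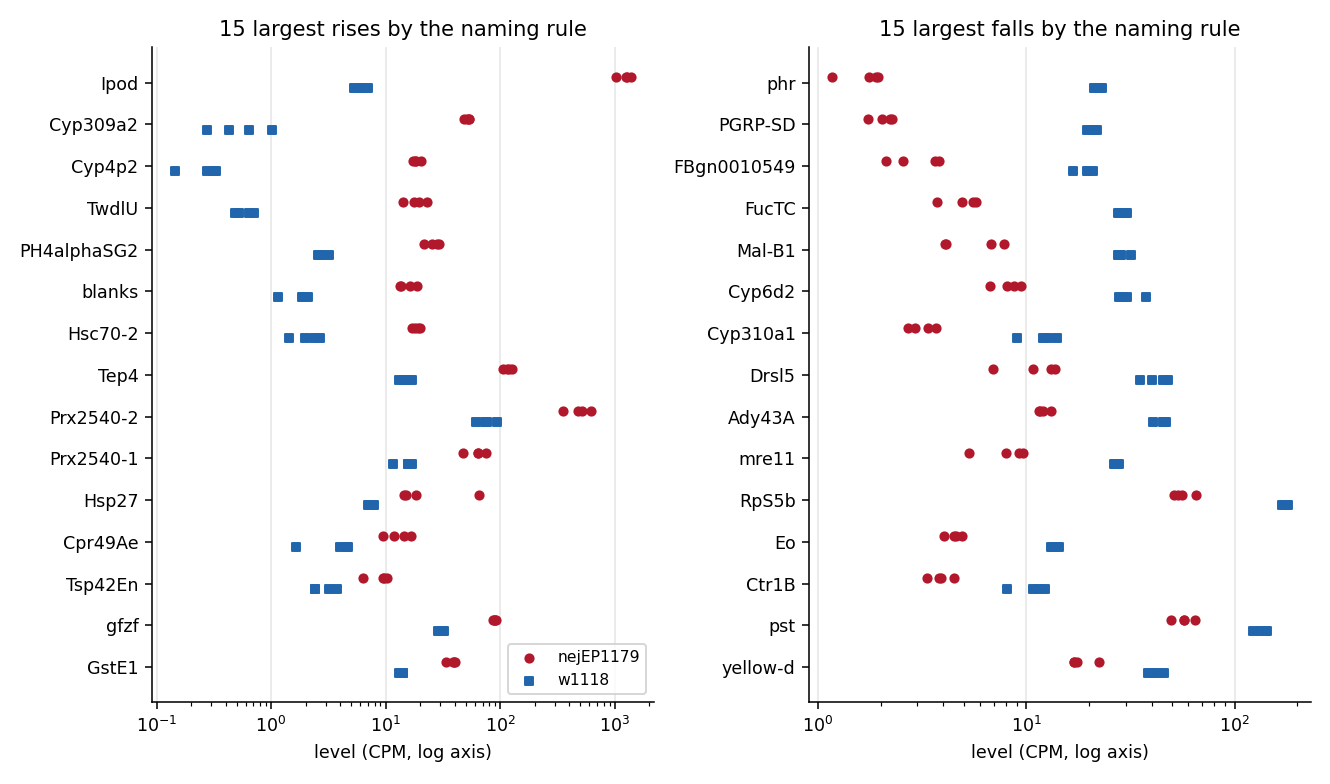
CPM on a log axis in each nejEP1179 library and each w1118 library (4 each) for the 15 largest rises and the 15 largest falls that the rule for named genes drew (mean of at least 5 CPM, no overlap between the groups, no symbol that is a number only). Ipod, Cyp309a2 and Cyp4p2 show the widest gaps upward, with phr and PGRP-SD the widest downward.

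Of the 15 largest falls that the rule for named genes drew, with a mean of at least 5 CPM, the first 2 were over 8-fold. phr, the photolyase that reverses cyclobutane pyrimidine dimers with light (FBgn0003082, 2R 7825289 to 7827319), had 1.17, 1.95, 1.77 and 1.895 CPM in nejEP1179, against 21.2, 22.1, 23.1 and 22.4 CPM in w1118 (log2 change of -3.71 ± 0.23, adjusted p = 8.1e-08). PGRP-SD, a secreted recognition protein for peptidoglycan (FBgn0035806, 3L 7651180 to 7651900), had 2.22, 2.28, 2.02 and 1.74 CPM in nejEP1179, against 20.9, 19.7, 21.95 and 20.6 CPM in w1118 (log2 change of -3.31 ± 0.13, adjusted p = 6.1e-11). The nejEP1179 libraries held both genes at a low but measurable level, all of them under the lowest w1118 library. The ABC transporter gene FBgn0010549 had 2.11, 2.56, 3.63 and 3.79 CPM in nejEP1179, against 19.8, 20.9, 19.5 and 16.8 CPM in w1118 (log2 change of -2.69 ± 0.23, adjusted p = 4.0e-06), with no overlap.

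FucTC, a fucosyltransferase gene on the X (FBgn0044872, X 23008766 to 23011303), had 5.73, 4.89, 5.55 and 3.71 CPM in nejEP1179, against 30.4, 27.6, 30.1 and 28.1 CPM in w1118 (log2 change of -2.53 ± 0.09, adjusted p = 1.7e-11). In nej3 it stood near the w1118 level, at 29.0 ± 1.03 CPM, and nejEP1179 lay below nej3 (-2.53 ± 0.09, adjusted p = 2.4e-10). Eo, an oxidoreductase gene of ecdysteroid metabolism also on the X (FBgn0030597, X 14916756 to 14918800), had 4.61, 4.03, 4.93 and 4.50 CPM in nejEP1179, against 14.4, 13.6, 13.8 and 13.2 CPM in w1118 (log2 change of -1.60 ± 0.11, adjusted p = 2.8e-08) and was lower than in nej3 too (-1.18 ± 0.11, adjusted p = 6.2e-06). The groups did not overlap in either gene.

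The adenosine kinase-like gene Ady43A (log2 change of -1.88 ± 0.08, adjusted p = 5.5e-11), the P450 genes Cyp6d2 (log2 change of -1.92 ± 0.12, adjusted p = 1.2e-08) and Cyp310a1 (log2 change of -1.91 ± 0.19, adjusted p = 4.4e-06), the maltase gene Mal-B1 (log2 change of -2.38 ± 0.19, adjusted p = 2.7e-06) and the drosomycin-like gene Drsl5 (log2 change of -1.89 ± 0.23, adjusted p = 2.1e-04) fell by over 3-fold. mre11, the nuclease of double-strand break repair, had 5.34, 9.63, 7.99 and 9.24 CPM in nejEP1179, against 26.95, 27.7, 27.4 and 26.3 CPM in w1118 (log2 change of -1.75 ± 0.14, adjusted p = 2.5e-07). The ribosomal protein copy RpS5b, known for its expression in the germline, had 65.1, 53.8, 56.2 and 51.4 CPM in nejEP1179, against 176, 174, 169 and 181 CPM in w1118 (log2 change of -1.63 ± 0.08, adjusted p = 2.2e-09). The copper importer gene Ctr1B (log2 change of -1.45 ± 0.15, adjusted p = 4.9e-06), yellow-d of the yellow family (log2 change of -1.18 ± 0.12, adjusted p = 9.9e-06) and pst, linked in adult flies to virus resistance (log2 change of -1.24 ± 0.12, adjusted p = 1.5e-05), completed the 15 falls drawn by the rule, all without overlap between the groups.

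By absolute level the changes fell on other genes. Besides Ipod and Prx2540-2, and under the same limits with no overlap between the groups, the rises that added most CPM were those of the apical membrane protein gene uif, the chaperone gene Hsc70-4, the Osiris genes Osi15 and Osi20, the paramyosin gene Prm and Glut4EF, named for a regulator of glucose transporter genes. uif had 1474, 1387, 1359.6 and 1820.4 CPM in nejEP1179, against 1161, 1109, 1120.1 and 967 CPM in w1118 (log2 change of 0.47 ± 0.08, adjusted p = 6.9e-04). Hsc70-4 averaged 2272 ± 81.6 CPM in nejEP1179 and 1934 ± 38.9 CPM in w1118 (SD, n = 4 each, log2 change of 0.23 ± 0.05, adjusted p = 0.0034), and Glut4EF 827 ± 109 CPM in nejEP1179 and 629 ± 32.9 CPM in w1118 (log2 change of 0.39 ± 0.09, adjusted p = 0.0055). Without both replicates 4 the changes of uif and Glut4EF were smaller, at 0.32 and 0.27. With the exonic length trend removed they were 0.30 and 0.18, and both genes still passed in each setting. shot, a spectraplakin that links actin and microtubules, and CycG, a cyclin gene, passed narrowly. shot had 1026, 1017, 988 and 1627 CPM in nejEP1179, against 920.0, 793, 907 and 699 CPM in w1118, with replicate 4 far above the other nejEP1179 libraries (log2 change of 0.49 ± 0.16, adjusted p = 0.046). Its call was lost without any 1 of the w1118 libraries (adjusted p of up to 0.12), and that of CycG (0.17, adjusted p = 0.037) without any 1 of 7 libraries, all but replicate 1 of nejEP1179 (adjusted p of up to 0.093).

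The falls that took most CPM, drawn by the same limits, included those of cher, Mical and chic. cher, the fly filamin that cross-links actin, had 978, 882, 868 and 997 CPM in nejEP1179, against 1375, 1426, 1400.4 and 1436 CPM in w1118 (log2 change of -0.60 ± 0.06, adjusted p = 2.9e-06). Mical, a redox enzyme that takes actin filaments apart, had 401, 389, 374 and 469 CPM in nejEP1179, against 617, 606, 628 and 576 CPM in w1118 (log2 change of -0.57 ± 0.06, adjusted p = 4.6e-06). chic, the fly profilin that delivers actin monomers, had 706, 664, 680.0 and 705 CPM in nejEP1179, against 924, 919, 951 and 997 CPM in w1118 (log2 change of -0.46 ± 0.05, adjusted p = 5.2e-06). In each of these genes the groups did not overlap, and each was called in every alternative run. The study presents chic as a gene whose use of a distal 3′ end depends on CBP. Counts over the whole gene do not show which part of its mRNA fell. The aldolase gene Ald (log2 change of -0.25 ± 0.05, adjusted p = 9.7e-04), Bacc (log2 change of -0.29 ± 0.05, adjusted p = 2.6e-04), the endoplasmic reticulum chaperone gene Hsc70-3 (log2 change of -0.26 ± 0.07, adjusted p = 0.0094) and the ribosomal protein gene RpS3A (log2 change of -0.24 ± 0.05, adjusted p = 0.0029) fell by less. RpL15 (-0.15, adjusted p = 0.044) lost its call without any 1 of 6 libraries, all but replicates 1 and 2 of nejEP1179 (adjusted p of up to 0.13). Over the 88 cytosolic ribosomal protein genes tested, 2 rose and 4 fell (6.82%, beside 24.9% of all genes), with a median of -0.055. Over the 72 mitochondrial ones 2 rose and 8 fell (13.9%), with a median of -0.060.

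Cytochrome P450 enzymes oxidize hormones, cuticle lipids and foreign compounds, and this family held many of the changed genes. Of 62 tested, 16 rose and 14 fell, 48.4% of the family beside 24.9% of all genes, with a median of 0.007. Over 2-fold, 11 rose and 4 fell. Leaving out 1 library at a time gave 13 to 19 rises and 12 to 14 falls. Besides the P450 genes given above, Cyp6a17, known for its part in temperature preference of adult flies, had 2.95, 3.89, 4.72 and 3.16 CPM in nejEP1179, against 0.626, 0.569, 0.4099 and 0.274 CPM in w1118 (log2 change of 2.95 ± 0.29, adjusted p = 2.3e-06). Cyp12a4, linked to insecticide resistance, had 0.334, 0.285, 0.2595 and 0.632 CPM in nejEP1179, against 3.22, 3.22, 2.64 and 2.69 CPM in w1118 (log2 change of -3.03 ± 0.28, adjusted p = 1.1e-06), and Cyp6a9 averaged 0.774 ± 0.232 CPM in nejEP1179 and 3.45 ± 0.534 CPM in w1118 (log2 change of -2.11 ± 0.21, adjusted p = 2.2e-06). Members of the Cyp6a cluster are similar in sequence, and reads may have been shared between neighbours.

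The glutathione transferases, which conjugate glutathione to oxidized and foreign compounds, changed less. Of 30 tested, 7 rose and 6 fell (43.3%, beside 24.9% of all genes), with a median of 0.00, and 1 in each direction passed 2-fold. GstE1 had 38.3, 39.9, 39.8 and 33.7 CPM in nejEP1179, against 13.7, 14.1, 14.2 and 13 CPM in w1118 (log2 change of 1.47 ± 0.08, adjusted p = 1.6e-09). GstS1, an abundant member found in muscle, had 237, 244, 264 and 263 CPM in nejEP1179, against 144, 141, 139.7 and 139 CPM in w1118 (log2 change of 0.84 ± 0.05, adjusted p = 3.6e-09). GstE3 (log2 change of 0.61 ± 0.08, adjusted p = 7.2e-05), GstE7 (log2 change of 0.74 ± 0.10, adjusted p = 7.4e-05) and GstT4 (log2 change of 0.40 ± 0.06, adjusted p = 1.2e-04) rose by less, while GstD1 fell (97.5 ± 2.15 CPM in nejEP1179 and 118 ± 3.32 CPM in w1118, log2 change of -0.27 ± 0.04, adjusted p = 1.2e-04). The groups did not overlap in GstE1 or GstS1. For 9 of the 30 members tested nejEP1179 lay below nej3 at an adjusted p under 0.05, GstE1 among them (-0.39 ± 0.07, adjusted p = 0.0029). Over all 10397 genes tested, 520 were lower than in nej3.

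**Figure D3:**
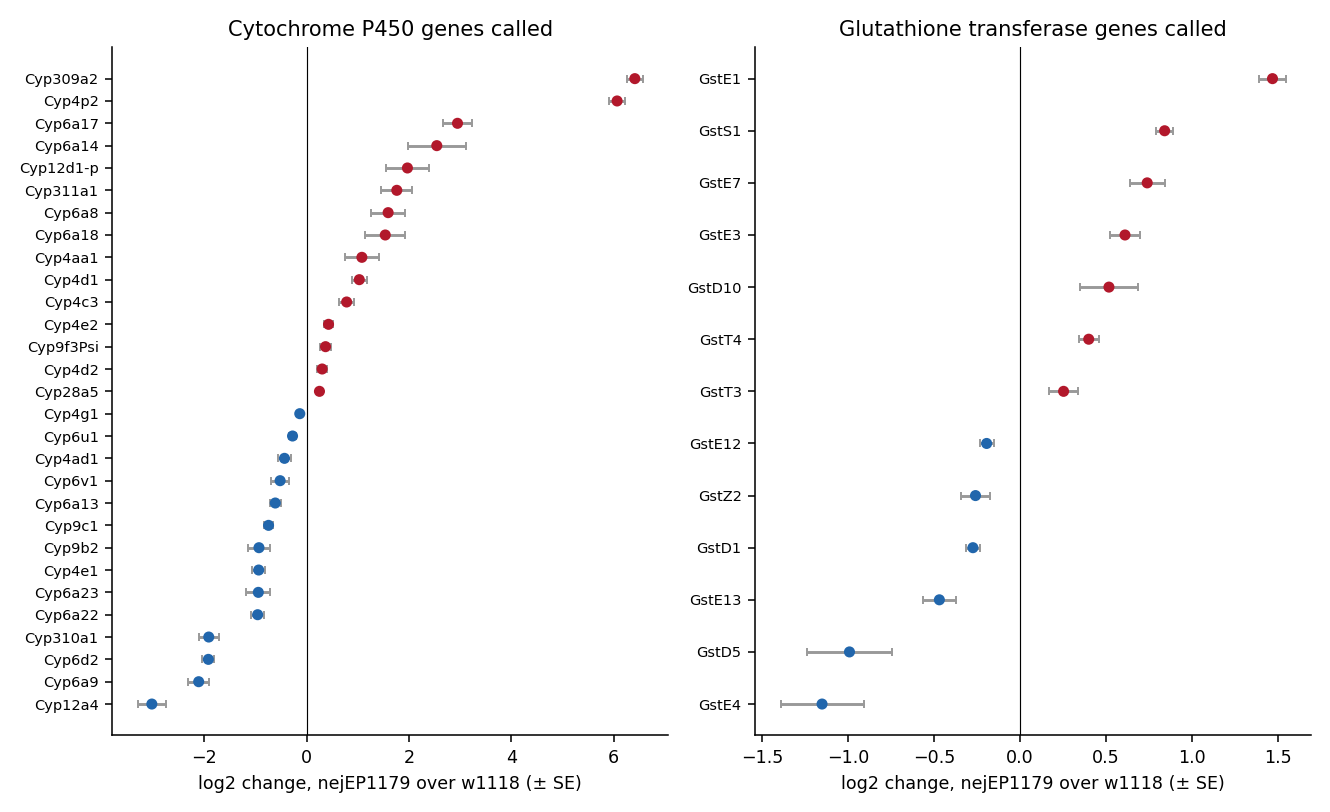
Log2 change in nejEP1179 (± SE) of each P450 and glutathione transferase gene that passed the test, rises in red and falls in blue, without Cyp12d1-d, which had no count in w1118. The P450 genes spread from Cyp309a2 and Cyp4p2 above 6 to Cyp12a4 near -3, while among the glutathione transferases GstE1 lies farthest up and GstE4 farthest down.

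The effectors of the Dpp, Wg and Hh pathways are known to bind CBP. Beside the 24.9% of all genes that changed, the lists of these pathways held 13, 20 and 25%. Of 23 tested genes of the Dpp (BMP) pathway 3 rose and the other 20 did not pass, with a median of 0.043. The receptor gene tkv rose by 0.18 (230.2 ± 4.43 CPM in nejEP1179 and 204 ± 3.48 CPM in w1118, adjusted p = 0.0083), the zinc finger partner shn by 0.40 (125 ± 19.8 CPM in nejEP1179 and 95 ± 7.34 CPM in w1118, adjusted p = 0.0092) and the effector Mad by 0.18 (adjusted p = 0.018). The call of Mad was lost without replicate 1 of nejEP1179 or replicate 4 of w1118 (adjusted p of up to 0.066). Of 20 genes of the Wg pathway 4 rose and the other 16 did not pass, with a median of 0.059. These were Notum, a secreted Wg deacylase (log2 change of 0.46 ± 0.09, adjusted p = 0.0015), the adaptor lgs (log2 change of 0.21 ± 0.05, adjusted p = 0.0045), the receptor fz2 (log2 change of 0.22 ± 0.05, adjusted p = 0.0061) and the nuclear effector pan (log2 change of 0.29 ± 0.08, adjusted p = 0.013). The rise of pan did not pass without both replicates 4 (adjusted p = 0.095) or with the exonic length trend removed (adjusted p = 0.21).

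Notum had 18.01, 19.03, 17.1 and 21.1 CPM in nejEP1179, against 12.6, 14.2, 13.9 and 14.04 CPM in w1118, and fz2 had 523, 524, 494 and 589 CPM in nejEP1179, against 456, 457, 457 and 458 CPM in w1118, each without overlap. Of 12 genes of the Hh pathway 2 rose and 1 fell, and with 1 library left out 0 to 2 rose. The scaffold gene cos fell (36.5 ± 1.75 CPM in nejEP1179 and 44.6 ± 2.64 CPM in w1118, log2 change of -0.29 ± 0.05, adjusted p = 0.0011), while the calls of disp (0.20, adjusted p = 0.02), lost without any 1 of 4 libraries (adjusted p of up to 0.065), and boi (0.21, adjusted p = 0.022), lost without any 1 of 6 (adjusted p of up to 0.066), did not hold throughout.

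In the Notch list 7 of 23 genes rose and 3 fell (43.5%, beside 24.9% of all genes), with a median of 0.14, and the 3 falls are near the 12.3% of all genes that fell. E(spl)m4-BFM, a Bearded family member that Notch turns on, had 4.002, 3.65, 4.05 and 4.34 CPM in nejEP1179, against 2.12, 2.09, 1.91 and 1.97 CPM in w1118 (log2 change of 0.98 ± 0.12, adjusted p = 2.0e-05), with no overlap. The repressor gene E(spl)m5-HLH averaged 2.83 ± 0.445 CPM in nejEP1179 and 1.52 ± 0.242 CPM in w1118 (log2 change of 0.88 ± 0.19, adjusted p = 0.0033), and Kaz-m1, in the same gene complex, also rose (log2 change of 0.27 ± 0.06, adjusted p = 0.0029). kuz, the protease that cleaves Notch (log2 change of 0.34 ± 0.05, adjusted p = 1.6e-04), and numb, an inhibitor of the pathway (log2 change of 0.32 ± 0.06, adjusted p = 5.9e-04), rose, and neur, the ligase that activates its ligands, fell (log2 change of -0.26 ± 0.07, adjusted p = 0.01). With 1 library left out 6 to 8 members rose and 2 to 3 fell.

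In the EGF receptor pathway 3 of 17 genes rose and 3 fell (35.3%, beside 24.9% of all genes, of which 12.6% rose and 12.3% fell). The falls were those of rl, Dsor1 and Ras85D. Of these, rl lies in a block at the centromere end of 2R, described below, where 8 of 13 tested genes fell. rl, the ERK kinase, had 85.4, 86.2, 87.8 and 94.1 CPM in nejEP1179, against 165, 165, 168 and 158 CPM in w1118 (log2 change of -0.89 ± 0.07, adjusted p = 3.8e-07). Dsor1, the MEK kinase, averaged 17.3 ± 0.225 CPM in nejEP1179 and 22.3 ± 1.59 CPM in w1118 (log2 change of -0.37 ± 0.07, adjusted p = 0.0015), and Ras85D, the small GTPase above them, averaged 121 ± 3.60 CPM in nejEP1179 and 146 ± 2.95 CPM in w1118 (log2 change of -0.27 ± 0.04, adjusted p = 2.4e-04). The feedback inhibitor kek1 rose (log2 change of 0.31 ± 0.06, adjusted p = 0.0014). The rises of the protease gene ru (0.43, adjusted p = 0.022) and the ligand gene vn (0.21, adjusted p = 0.029) were lost without any 1 of 3 libraries (ru, adjusted p of up to 0.071) or of 4 (vn, adjusted p of up to 0.084).

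Of 11 Hox and head selector genes 0 passed with edgeR, and their median was 0.00. At an unadjusted p under 0.05 the count was 2, and DESeq2 called 0. Ubx, which sets the identity of the posterior thorax, stood at 114 ± 2.403 CPM in nejEP1179 and 114 ± 1.44 CPM in w1118 (log2 change of 0.00 ± 0.05, adjusted p = 1), and Dfd, which specifies head segments, at 19.2 ± 2.03 CPM in nejEP1179 and 19.3 ± 0.883 CPM in w1118 (log2 change of -0.01 ± 0.08, adjusted p = 0.92). The 95% interval of the change of Ubx, from its SE, was -0.10 to 0.10 on the log2 scale. Of 20 Polycomb group genes 3 rose and 2 fell (25.0%, near the 24.9% of all genes). ph-d fell (log2 change of -0.26 ± 0.04, adjusted p = 4.2e-04) and Asx rose (log2 change of 0.23 ± 0.06, adjusted p = 0.011, but adjusted p = 0.064 without both replicates 4). The tandem neighbour ph-p rose (log2 change of 0.14 ± 0.04, adjusted p = 0.014), though not with the exonic length trend removed (adjusted p = 0.43), and ph-p and ph-d are close copies that can share reads. The calls of Jarid2 (0.19, adjusted p = 0.026) and escl (-0.40, adjusted p = 0.029) were lost without any 1 of 4 and of 6 libraries (adjusted p of up to 0.086 and 0.088).

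**Figure D4:**
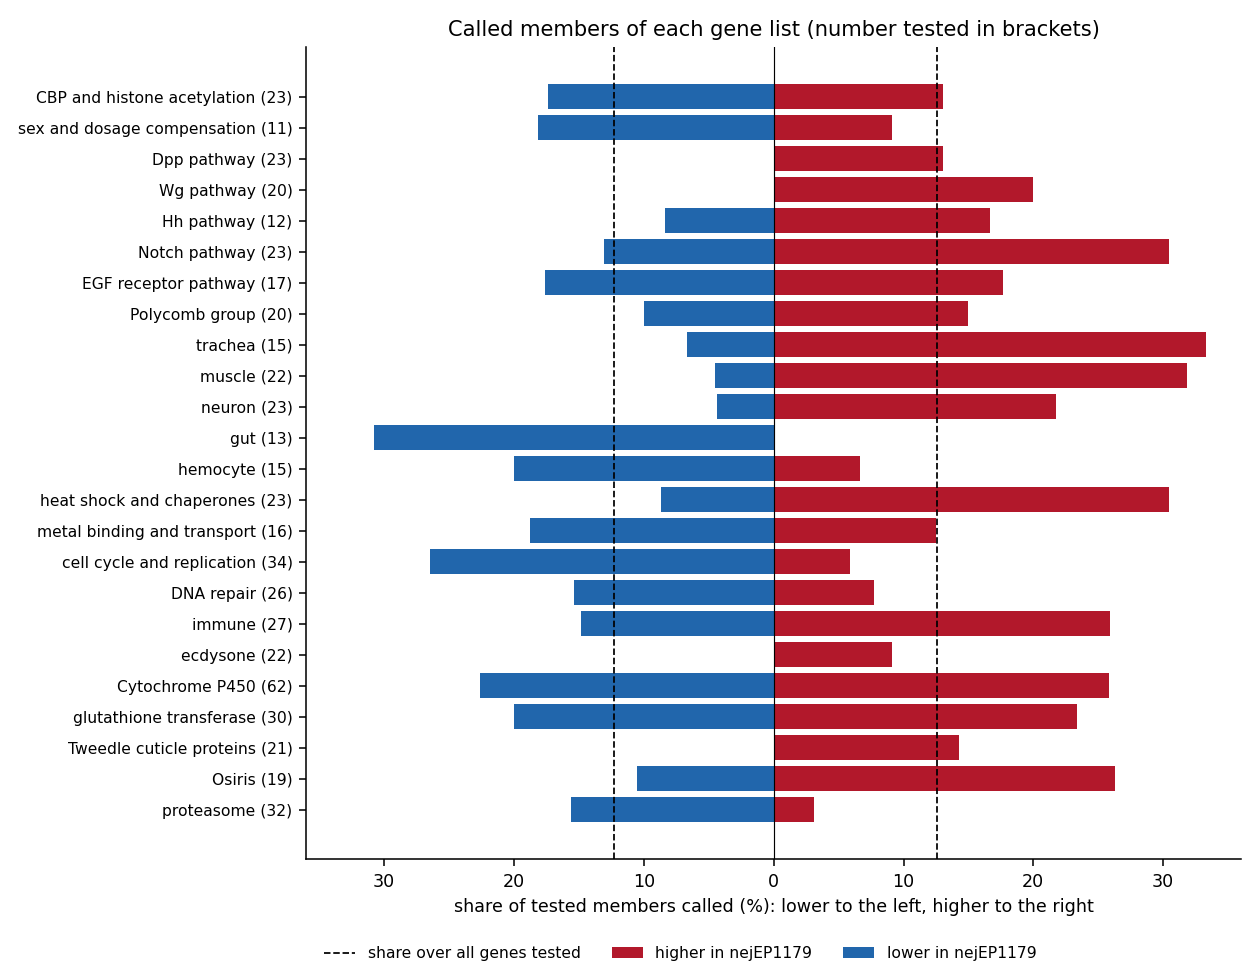
Percent of the tested members of each described gene list with at least 10 tested members that rose (red, to the right) and that fell (blue, to the left) in nejEP1179, with dashed lines at the 12.6% and 12.3% of all tested genes that did so. Of these lists trachea (5 of 15) and muscle (7 of 22) reach farthest to the right and gut (4 of 13) farthest to the left.

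Of 15 tracheal genes tested 5 rose and 1 fell (40.0%, beside 24.9% of all genes), with a median of 0.072. btl, the FGF receptor that guides tracheal branches, had 13.7, 14.95, 15.5 and 14.6 CPM in nejEP1179, against 9.87, 8.58, 10.2 and 9.598 CPM in w1118 (log2 change of 0.62 ± 0.10, adjusted p = 2.2e-04). pio, a zona pellucida protein of the tracheal lumen, averaged 34.1 ± 2.78 CPM in nejEP1179 and 23.6 ± 2.93 CPM in w1118 (log2 change of 0.53 ± 0.12, adjusted p = 0.0053), and trh, the transcription factor that starts tracheal fate, averaged 127 ± 9.93 CPM in nejEP1179 and 104 ± 3.16 CPM in w1118 (log2 change of 0.29 ± 0.06, adjusted p = 0.0018). uif has been given above, and the junction gene pyd rose too (log2 change of 0.24 ± 0.06, adjusted p = 0.0055), although not with the exonic length trend removed (adjusted p = 0.59). The fall of knrl (-0.18, adjusted p = 0.034) was lost without any 1 of 6 libraries (adjusted p of up to 0.095). Summed over the list, levels were 7697 to 8841 CPM in nejEP1179 and 6645 to 7310 CPM in w1118, and in whole embryos a larger share of a cell type and more RNA per cell cannot be told apart.

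Of 22 muscle genes 7 rose and 1 fell (36.4%, beside 24.9% of all genes), with a median of 0.158. At most 6 members are named, and the 1 that fell is not among them. Mp20, a calponin of muscle, had 124, 158, 180.3 and 135 CPM in nejEP1179, against 111, 96.7, 105 and 78.1 CPM in w1118 (log2 change of 0.61 ± 0.14, adjusted p = 0.0075). rols, needed for myoblast fusion (log2 change of 0.30 ± 0.05, adjusted p = 6.5e-04), the Z-disc gene Zasp52 (log2 change of 0.32 ± 0.06, adjusted p = 7.1e-04), the troponin C gene TpnC47D (log2 change of 0.23 ± 0.06, adjusted p = 0.0085), Prm (log2 change of 0.29 ± 0.07, adjusted p = 0.0072) and the master regulator Mef2 (log2 change of 0.17 ± 0.04, adjusted p = 0.0048) rose by less. The rise of Mef2 did not pass with the exonic length trend removed (adjusted p = 0.56). The sums of the list were 37580 to 45020 CPM in nejEP1179 and 34720 to 37630 CPM in w1118, so that the ranges touched.

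Of 23 neuronal genes 5 rose and 1 fell (26.1%, near the 24.9% of all genes), with a median of 0.139, but only 2 rose without replicate 4 of w1118. Rbp9, an RNA-binding protein of the ELAV family, had 80.4, 84.7, 85.1 and 92.6 CPM in nejEP1179, against 51.98, 53.02, 47.4 and 47.7 CPM in w1118 (log2 change of 0.78 ± 0.07, adjusted p = 1.1e-06). VGlut, the vesicular glutamate transporter of motor neurons, moved the other way, with 122, 129, 136 and 145 CPM in nejEP1179, against 233, 236, 204 and 206 CPM in w1118 (log2 change of -0.73 ± 0.07, adjusted p = 3.7e-06). The groups did not overlap in either gene. The monoamine transporter gene Vmat rose (log2 change of 0.38 ± 0.08, adjusted p = 0.0035). The calls of VAChT and brp, an acetylcholine transporter and a scaffold of the active zone, were lost without replicate 4 of w1118 (adjusted p of 0.055 and 0.069), and that of Syx1A (0.27, adjusted p = 0.041) without any 1 of 6 libraries (adjusted p of up to 0.11). The list summed to 3089 to 3771 CPM in nejEP1179 and 2791 to 3123 CPM in w1118.

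Of 13 gut genes 4 fell (30.8%, beside 24.9% of all genes called and 12.3% that fell), Mal-B1 among them. The other 9 did not pass, and 4 fell with any 1 library left out. The trypsin gene alphaTry had 0.0556, 0.1898, 0.415 and 0.237 CPM in nejEP1179, against 5.05, 6.59, 4.92 and 5.16 CPM in w1118 (log2 change of -4.55 ± 0.34, adjusted p = 9.4e-08). The related betaTry averaged 0.184 ± 0.0725 CPM in nejEP1179 and 0.852 ± 0.234 CPM in w1118 (log2 change of -2.18 ± 0.52, adjusted p = 0.0067), and the Jonah protease gene Jon65Aiii had 13.9, 16.1, 17.8 and 18.95 CPM in nejEP1179, against 35.3, 37.1, 36.5 and 30.6 CPM in w1118 (log2 change of -1.07 ± 0.17, adjusted p = 6.5e-04). The trypsin genes form a cluster of similar copies, and reads may be shared among them. The gut list summed to 428 to 456 CPM in nejEP1179 and 488 to 495 CPM in w1118. Of 7 maltase genes, which break down sugars in the gut, 1 rose and 3 fell (57.1%, beside 24.9% of all genes). Mal-B2 (log2 change of -0.68 ± 0.18, adjusted p = 0.014) fell and Mal-A3 rose (log2 change of 0.43 ± 0.11, adjusted p = 0.011), and neither passed without both replicates 4 (adjusted p of 0.065 and 0.069). The fall of Mal-A5 (-0.28, adjusted p = 0.028) was lost without any 1 of 6 libraries (adjusted p of up to 0.082).

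Of the blood cell genes, the prophenoloxidase genes, which encode the melanizing enzymes of crystal cells, were lower in these whole embryos. Fewer crystal cells and less RNA per cell cannot be told apart here. PPO2 had 261, 288, 247 and 283 CPM in nejEP1179, against 433, 418, 433 and 473 CPM in w1118 (log2 change of -0.70 ± 0.06, adjusted p = 6.8e-07). PPO1 had 198, 202, 175 and 193 CPM in nejEP1179, against 286, 275, 284 and 329 CPM in w1118 (log2 change of -0.61 ± 0.07, adjusted p = 1.1e-05). All nejEP1179 libraries lay below all w1118 libraries in both. The engulfment receptor gene drpr rose (log2 change of 0.28 ± 0.04, adjusted p = 6.0e-05), and the fall of the peroxidasin gene Pxn (-0.18, adjusted p = 0.038) was lost without any 1 of 6 libraries (adjusted p of up to 0.12). Among 15 hemocyte genes 1 rose and 3 fell (26.7%, near the 24.9% of all genes). The list summed to 10700 to 12800 CPM in nejEP1179 and 10030 to 11300 CPM in w1118, and its abundant collagen IV gene vkg did not pass (0.18, adjusted p = 0.11).

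Of 34 cell cycle and replication genes 9 fell and 2 rose (32.4%, beside 12.3% of all genes that fell and 12.6% that rose), with a median of -0.111. The mitotic cyclin genes CycB3 and CycA fell, with 10.1, 10.6, 7.94 and 8.92 CPM in nejEP1179, against 14.9, 14.5, 15.98 and 16.6 CPM in w1118 for CycB3 (log2 change of -0.72 ± 0.10, adjusted p = 9.7e-05) and 45.99 ± 3.01 CPM in nejEP1179 and 61.1 ± 2.004 CPM in w1118 for CycA (log2 change of -0.41 ± 0.05, adjusted p = 5.3e-05). The replication helicase gene Mcm5 (log2 change of -0.36 ± 0.07, adjusted p = 0.0018) and the origin recognition gene Orc1 (log2 change of -0.34 ± 0.07, adjusted p = 0.0018) fell too. Both rises were subunits of the GINS complex, which joins the helicase at the fork. Psf3 had 8.56, 8.54, 6.54 and 8.29 CPM in nejEP1179, against 2.94, 3.13, 3.78 and 4.17 CPM in w1118 (log2 change of 1.19 ± 0.15, adjusted p = 3.1e-05). Psf1 averaged 3.88 ± 0.6101 CPM in nejEP1179 and 1.51 ± 0.419 CPM in w1118 (log2 change of 1.38 ± 0.19, adjusted p = 7.8e-05). Psf3, on the X, was higher than in nej3 (1.73 ± 0.16, adjusted p = 5.3e-06), whereas Psf1 was not (-0.15 ± 0.17, adjusted p = 0.67). With 1 library left out, 7 to 10 members fell.

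Of 26 DNA repair genes 4 fell and 2 rose (23.1%, near the 24.9% of all genes), with a median of 0.002. The large falls of phr and mre11 have been given above. The other photolyase, phr6-4, which repairs (6-4) photoproducts, moved in the opposite direction, with 4.17, 4.603, 5.14 and 3.87 CPM in nejEP1179, against 1.396, 1.14, 0.865 and 1.37 CPM in w1118 (log2 change of 1.91 ± 0.19, adjusted p = 2.2e-06). The translesion polymerase gene mus205 (log2 change of -0.63 ± 0.15, adjusted p = 0.0068) and the oxidized guanine glycosylase gene Ogg1 (log2 change of -0.44 ± 0.11, adjusted p = 0.009, but adjusted p = 0.061 without both replicates 4) fell. The rise of the mismatch repair gene Pms2 (0.63, adjusted p = 0.016) was lost without replicate 3 of nejEP1179 (adjusted p = 0.061).

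Of 27 immune genes tested 7 rose and 4 fell (40.7%, beside 24.9% of all genes), with a median of 0.152. PGRP-LA, a member of the same recognition family as PGRP-SD, had 38.2, 42.2, 40.95 and 44.5 CPM in nejEP1179, against 19.97, 19.95, 18.9 and 20.6 CPM in w1118 (log2 change of 1.06 ± 0.06, adjusted p = 3.4e-09), and the JAK-STAT receptor gene dome rose by 0.29 (89.1 ± 4.595 CPM in nejEP1179 and 72.7 ± 0.835 CPM in w1118, adjusted p = 1.9e-04). These directions were opposite to that of PGRP-SD, and the groups did not overlap in PGRP-LA. Of 23 heat shock and chaperone genes 7 rose and 2 fell (39.1%, beside 24.9% of all genes), with a median of 0.509. Without replicate 2 of nejEP1179 the median was 0.232 and 3 rose, without any 1 of the 4 w1118 libraries 3 rose, without both replicates 4 2 rose, and without replicate 1 of nejEP1179 11 rose. Hsp67Ba fell (log2 change of -0.73 ± 0.19, adjusted p = 0.01, but adjusted p = 0.070 without both replicates 4), and the cochaperone gene stv rose (log2 change of 0.29 ± 0.08, adjusted p = 0.017), although not without replicate 2 of nejEP1179 (adjusted p = 0.054). In 12 of the 23 nejEP1179 lay below nej3 at an adjusted p under 0.05, beside 520 of all 10397 genes tested.

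Among 16 genes of metal binding and transport 2 rose and 3 fell (31.2%, beside 24.9% of all genes). MtnA, the main copper metallothionein, had 194, 222, 211 and 191 CPM in nejEP1179, against 254, 299.9, 281 and 271 CPM in w1118 (log2 change of -0.43 ± 0.06, adjusted p = 8.3e-05), and nej3 held still less (82.3 ± 4.38 CPM). The manganese and iron transporter gene Mvl (log2 change of 0.25 ± 0.04, adjusted p = 5.7e-04) and the copper pump gene ATP7 (log2 change of 0.22 ± 0.06, adjusted p = 0.011, but adjusted p = 0.058 without both replicates 4) rose, and the fall of Tsf3 (-0.51, adjusted p = 0.023) was lost without any 1 of 4 libraries (adjusted p of up to 0.068). Of 8 prolyl 4-hydroxylase genes only 4 could be tested. All 4 passed, beside 24.9% of all genes, with PH4alphaSG2, given above, upward and the others downward. PH4alphaSG1, a neighbour of PH4alphaSG2 in the same cluster, had 22.9, 21.3, 19.7 and 19.1 CPM in nejEP1179, against 39.9, 42.8, 42.6 and 42.01 CPM in w1118 (log2 change of -1.01 ± 0.06, adjusted p = 7.8e-09). PH4alphaPV fell (log2 change of -0.71 ± 0.11, adjusted p = 1.9e-04), and the fall of PH4alphaEFB (-0.27, adjusted p = 0.021) was lost without replicate 3 or 4 of nejEP1179 or replicate 4 of w1118 (adjusted p of up to 0.066).

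Of 22 ecdysone genes 2 rose (9.09%, beside 24.9% of all genes). One was the hydroxylase gene phm of the prothoracic gland (8.72 ± 0.689 CPM in nejEP1179 and 4.74 ± 0.418 CPM in w1118, log2 change of 0.87 ± 0.12, adjusted p = 5.0e-05). The other was spok (0.52, adjusted p = 0.04), whose call was lost without any 1 of 6 libraries (adjusted p of up to 0.11). Of 32 proteasome genes 1 rose and 5 fell (18.8%, beside 24.9% of all genes), with a median of -0.110. The core subunit genes Prosalpha2 (log2 change of -0.26 ± 0.06, adjusted p = 0.0033) and Prosalpha7 (log2 change of -0.27 ± 0.06, adjusted p = 0.004) and the lid gene Rpn9 (log2 change of -0.27 ± 0.06, adjusted p = 0.0063) fell, and the ATPase gene Rpt4 rose (log2 change of 0.23 ± 0.06, adjusted p = 0.0075), while the calls of Rpn7 and Prosbeta5 were lost without any 1 of 5 libraries each (adjusted p of up to 0.11 and 0.14). Of 21 Tweedle genes 3 rose (14.3%, beside 24.9% of all genes), TwdlU among them. The calls of TwdlF (0.51, adjusted p = 0.029) and TwdlX (0.60, adjusted p = 0.045) were lost without any 1 of 6 libraries (adjusted p of up to 0.094 and 0.11).

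The Osiris genes, expressed in cuticle-secreting epithelia at this age, were abundant in both groups. Of 19 tested 5 rose and 2 fell (36.8%, beside 24.9% of all genes), with a median of -0.036. Their summed levels were 28100 to 31670 CPM in nejEP1179 and 29230 to 35150 CPM in w1118, so that the ranges overlapped. Leaving out 1 library gave 3 to 5 rises and 0 to 3 falls. Osi15 had 1742, 1789, 1932 and 2004 CPM in nejEP1179, against 1500.3, 1651, 1498 and 1506 CPM in w1118 (log2 change of 0.28 ± 0.07, adjusted p = 0.0058), so that the highest w1118 library lay close to the lowest of nejEP1179. Osi20 (log2 change of 0.34 ± 0.07, adjusted p = 0.0015) and Osi18 (log2 change of 0.29 ± 0.06, adjusted p = 0.0012) rose too. The calls of Osi9 (0.22, adjusted p = 0.02) and Osi19 (0.22, adjusted p = 0.022) were lost without any 1 of 3 libraries and that of Osi5 (-0.51, adjusted p = 0.024) without any 1 of 5 (adjusted p of up to 0.070, 0.076 and 0.071). Of the 3 eggshell and yolk genes that could be tested, the vitelline membrane gene Vm26Aa was lower (0.0903 ± 0.0779 CPM in nejEP1179 and 1.49 ± 0.409 CPM in w1118, log2 change of -3.84 ± 0.46, adjusted p = 1.7e-05).

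The white gene and the sex-linked genes bore on the stocks. w had 4.78, 3.27, 4.31 and 1.895 CPM in nejEP1179, against 0.0481, 0.142, 0.0911 and 0 CPM in w1118 (log2 change of 5.52 ± 0.43, adjusted p = 1.2e-06). Reads of the mini-white marker of the EP insertion and of the endogenous gene cannot be told apart here, and nej3 held 39.1 ± 3.13 CPM. The one Y-linked gene that could be tested, fdy, picked after its values were seen, had 5.45, 7.26, 5.97 and 6.395 CPM in nejEP1179, against 0.0963, 0, 0.0911 and 0.0549 CPM in w1118 (log2 change of 6.54 ± 0.29, adjusted p = 1.7e-10), and nej3 held 3.52 ± 0.439 CPM. Neither gene overlapped between the groups.

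Genes of the sex switch moved by small amounts. Sxl, the switch gene of female development, had 343, 331, 339.7 and 356 CPM in nejEP1179, against 426, 465, 415 and 422 CPM in w1118 (log2 change of -0.34 ± 0.06, adjusted p = 0.001). Its target tra averaged 5.402 ± 0.588 CPM in nejEP1179 and 7.72 ± 1.19 CPM in w1118 (log2 change of -0.51 ± 0.14, adjusted p = 0.013, but adjusted p = 0.066 without both replicates 4). msl-2, the subunit that limits dosage compensation to males, had 35.4, 37.7, 34.6 and 35.5 CPM in nejEP1179, against 29.8, 25.96, 31.4 and 27.5 CPM in w1118 (log2 change of 0.32 ± 0.06, adjusted p = 1.0e-03). The dosage compensation RNAs roX1 (log2 change of 0.22 ± 0.10, adjusted p = 0.14) and roX2 (log2 change of -0.06 ± 0.10, adjusted p = 0.7) did not pass, although roX1 did without replicate 3 of w1118 (0.33, adjusted p = 0.014). The X chromosome took 14.1 to 14.3% of the counts in nejEP1179 and 14.0 to 14.1% in w1118. Whether the share of male embryos differed between the groups was not tested.

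Changes were spread over the chromosome arms. On the X 219 of 1659 genes rose and 162 fell (13.2 and 9.76%), and on the autosomes 1054 of 8513 rose and 1093 fell (12.4 and 12.8%). The percent that rose was 12.6 on 2L, 12.2 on 2R, 12 on 3L, 12.7 on 3R and 9.89 on 4, and the percent that fell was 13.7, 13.3, 11.6, 13 and 9.89. A block at the centromere end of 2R stood out on inspection of the values. Of 13 genes tested in its first 2 Mb, 8 fell and 2 rose, with a median of -0.891. Yeti, a chromatin gene of this heterochromatic region (FBgn0267398, 2R 1343403 to 1345119), had 109, 112, 109.6 and 108 CPM in nejEP1179, against 211, 219.5, 216 and 218 CPM in w1118 (log2 change of -0.98 ± 0.04, adjusted p = 4.5e-11). The libraries of each group lay within a few CPM of each other, and the groups did not overlap. The neighbouring genes CG40191 (log2 change of -1.03 ± 0.05, adjusted p = 4.5e-10) and CG40498 (log2 change of -1.15 ± 0.09, adjusted p = 2.6e-07) fell by a like amount, as did rl, given above, which lies between them, and the RNA gene CR44042 fell further (log2 change of -2.20 ± 0.10, adjusted p = 1.7e-10). These genes were picked after their values were seen.

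In nej3, tested against the same w1118 libraries, the median over the 13 genes of this block was -0.999. Directly between nejEP1179 and nej3, 0 of the 13 differed with edgeR or DESeq2, and 1 had an unadjusted p under 0.05. Among those 13 genes the levels of Yeti were 108 ± 3.59 CPM in nej3 and of rl 80.5 ± 10.4 CPM. The first 5 Mb of 3R (17 of 91 genes up, 10 down), the last 2 Mb of 2L (5 of 53 up, 10 down) and the last 2 Mb of 3L (2 of 9 up, 2 down) had medians of -0.006, -0.033 and -0.044. The 2 genes of the 2R block that rose were CR44043 and CG17691. CR44043 averaged 1.82 CPM in nejEP1179 and 0.315 CPM in w1118 (log2 change of 2.50 ± 0.36, adjusted p = 9.4e-05). CG17691 rose by less (log2 change of 0.27 ± 0.07, adjusted p = 0.0068). CR44043 overlaps l(2)41Ab, which did not pass (-0.33, adjusted p = 0.058), on the opposite strand. The strand used for counting is not stated, so reads there could be counted for either gene.

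The direction of change went with the exonic length of the gene. Among 9437 genes with at least 1 CPM on average, 129 of 461 genes with over 8 kb of exons rose (28%) and 8 fell (1.74%), while of 2984 genes of 1 to 2 kb 308 rose (10.3%) and 490 fell (16.4%). Between them, 11.6% rose and 13.6% fell at 2 to 4 kb and 17.6% rose and 6.55% fell at 4 to 8 kb, and under 1 kb 9.06% rose and 13.5% fell. A single library of each group carried much of this. The median log2 level of the genes over 8 kb, relative to the w1118 mean, was 0.076, 0.098, 0.063 and 0.330 in nejEP1179, against 0.040, 0.018, 0.036 and -0.095 in w1118. Without replicate 4 of nejEP1179 20.2% of these genes rose, without replicate 4 of w1118 14.5%, and without both 11.7%, with 3.25% falling. What set these libraries apart was not tested. nej, with its long mRNA, rose in each of these settings, and with the length trend removed its change was 0.51 (adjusted p = 5.7e-07).

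**Figure D5:**
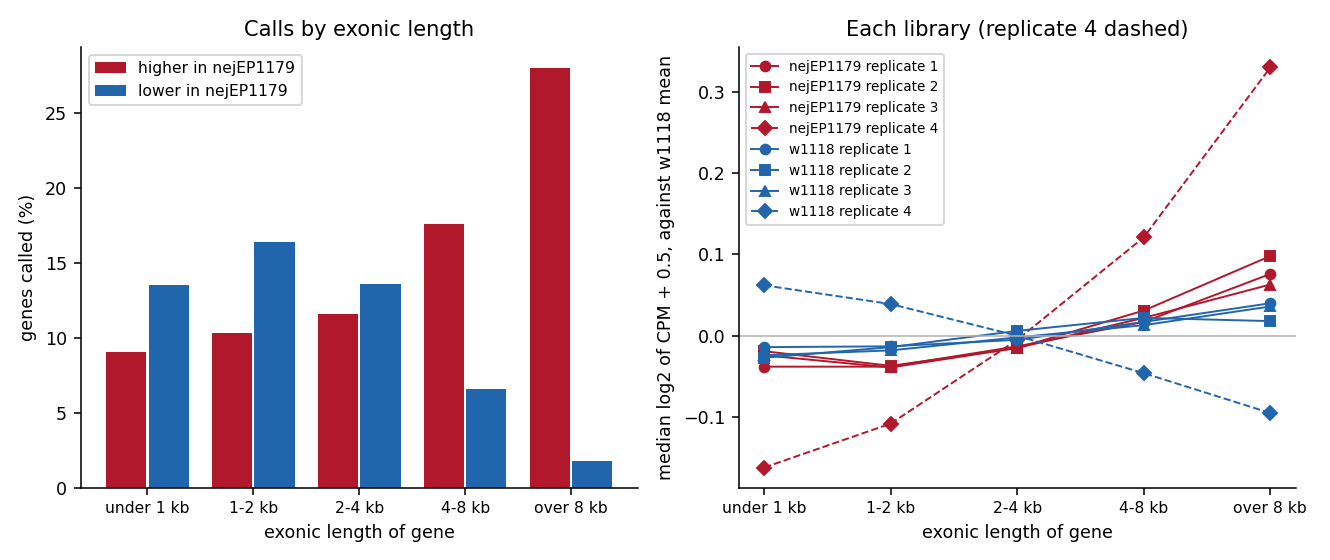
Percent of genes that rose and that fell in nejEP1179 by exonic length, and the median log2 level of each library relative to the w1118 mean in the same length classes. Long genes rose more often than they fell, and replicate 4 of nejEP1179 (0.330) and replicate 4 of w1118 (-0.095) lie at the far ends of the class over 8 kb.

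Set directly against nej3, the other allele, 967 genes differed (9.30%), 447 of them higher and 520 lower in nejEP1179. Of the 15 largest rises against w1118 in the plot of levels by library, 10 did not differ between the alleles, 2 were higher in nejEP1179 and 3 lower. Of the 15 largest falls there, 8 did not differ, 2 were higher and 5 lower. The comparisons of both alleles with w1118 share the same 4 control libraries. Ipod stood at 1148 ± 166 CPM in nej3 (0.11 ± 0.11, adjusted p = 0.6), Cyp309a2 at 46.4 ± 3.19 CPM (0.15 ± 0.10, adjusted p = 0.38) and Tep4 at 113 ± 3.95 CPM (0.04 ± 0.07, adjusted p = 0.74). In contrast blanks (3.79 ± 0.673 CPM in nej3, 2.02 ± 0.16, adjusted p = 1.3e-06) and Hsc70-2 (9.25 ± 1.25 CPM, 0.998 ± 0.13, adjusted p = 1.2e-04) were higher in nejEP1179, and phr (5.02 ± 1.88 CPM, -1.57 ± 0.25, adjusted p = 0.0016) and alphaTry (1.39 ± 0.558 CPM, -2.60 ± 0.40, adjusted p = 6.9e-04) were lower. A fit of these 2 groups alone gave 563 genes, and the fit without replicate 3 of nejEP1179 gave 626.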

How the data were processed

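Short-read RNA sequencing of whole embryos was analysed from the table of raw counts per gene that the authors deposited for the age of 14 to 16 h (12 libraries, 17558 genes). Per the submitters' processing notes, the authors mapped reads to dm6, counted them by featureCounts and used DESeq2, with versions and the strand setting not given in the sources used here. The authors' fold changes and p-values were not used. Of the authors' deposited tables per mutant, which hold log2 fold changes, adjusted p-values and normalized means, only the column that pairs identifiers with symbols was read. Positions (98.3% of genes) come from the Ensembl annotation of BDGP6, in dm6 coordinates. No library preparation is given for these embryos in the sources used here.

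Samples were grouped by the labels. Genes with low counts were removed by filterByExpr (10397 kept), libraries were scaled by TMM, and all 12 libraries were fitted with group as the only term by glmQLFit (robust) of edgeR 4.0.16 and tested by glmQLFTest, with Benjamini-Hochberg adjustment and a threshold of 0.05. The total counts of 13129082 to 21509453 gave a median SE of 0.083 on the log2 scale. The procedure was tested on simulated data. Adjusted p-values in the text are those of edgeR.

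The members, the 54 gene lists and the tests were chosen with earlier results of these data known. Genes named were nej and its neighbours within 100 kb, the 15 largest rises and falls and the 10 largest by CPM with a mean of at least 5 CPM and no overlap between groups, and at most 6 members per list. Symbols that are a number only, and genes for RNAs, histones or transposons, were not named (882 of 1852 candidates). Genes outside this rule (fdy, Yeti, CG40191, CG40498, CR44042, CR44043, CG17691, Cyp12d1-d, and unchanged genes given for contrast) were picked after their values were seen. Alternatives were RLE scaling, no filter, DESeq2 1.42.0, a replicate block, a fit of the compared groups, each library left out and a threshold of 0.01, with both replicates 4 left out and removal of the exonic length trend added after seeing the data. R 4.3.3, Python 3.11.15 and matplotlib 3.10.9 were used.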

Additional observations from a re-analysis of the deposited data

Results flagged for a closer look

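In each group of 4 libraries, the gap from the highest or lowest level of a named gene to the nearest other level was taken. This gap was divided by the range of the 4 levels (Dixon's ratio). Of 328 such groups, 25 held a library that stood far from the others, and chance alone marks about 1 group in 20. The level of nej in replicate 4 of w1118 was 231.7 CPM, under the 253 to 257 CPM of the other w1118 libraries.

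In replicate 4 of nejEP1179, shot (1627 CPM), fs(1)h (549 CPM) and kek1 (90.9 CPM) were higher than in the other nejEP1179 libraries and boi (54.8 CPM) was lower. Replicate 2 of nejEP1179 had the highest Hsp27, a small heat shock gene (65.0 CPM, against 14.3 to 18.2 CPM in the other 3), and the lowest Sirt6, a sirtuin gene (3.37 CPM). Replicate 1 had the highest yellow-d (22.4 CPM) and Mad (94.8 CPM) and the lowest cos (33.9 CPM) and Zasp52 (239.8 CPM). In replicate 3, Psf3 was the lowest (6.54 CPM, against 8.29 to 8.56 CPM).

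In replicate 4 of w1118, besides nej, the levels of Glut4EF (580.0 CPM), shn (84.0 CPM), lgs (118.4 CPM), Vmat (104.2 CPM), brp (341.1 CPM) and phm (4.11 CPM) were the lowest. Dsor1 (24.7 CPM), Prosalpha2 (40.1 CPM) and Prosalpha7 (51.1 CPM) were the highest there. In replicate 2 of w1118, Osi15 (1651 CPM) and alphaTry (6.59 CPM) were high and Ogg1 (6.30 CPM) was low, and in replicate 1 escl (4.52 CPM) was low.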

How the results depend on the processing

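For nejEP1179 against w1118, the count of 2587 genes stayed within 1.5 times under RLE scaling (2577), no filter (2509), DESeq2 (2612), a fit of the compared groups alone (2776), removal of the exonic length trend (2588) and each library left out (1906 without replicate 4 of w1118 to 2574 without replicate 1 of nejEP1179). Without both replicates 4 it was 1695, with 801 falls against 1281, and at a threshold of 0.01 it was 1394. For nejEP1179 against nej3, a fit of these groups alone gave 563 genes, 256 higher and 307 lower in nejEP1179. With each library left out that count ranged between 626 and 991, with 287 to 463 higher and 328 to 528 lower, and the lowest values came without replicate 3 of nejEP1179 or, for genes higher in nejEP1179, replicate 3 of nej3. The cause was not tested. With a replicate block 2211 genes passed against w1118. The correlations of same-numbered libraries were -0.42, 0.022, 0.31 and 0.13, and those of different-numbered libraries lay between -0.49 and 0.55. These correlations cannot show whether equal numbers mark a shared day or batch, and the labels do not say. Of 164 named genes 119 kept their side of the threshold and their direction in every setting. Among named genes 197 of 2459 values lost the call, roX1 gained it once, and the change of roX2, which did not pass, lay between -0.15 and 0.046 with each library left out (0.046 without replicate 3 of w1118) and was 0.0010 with the length trend removed, beside -0.06. Depth limits the genes near 1 CPM, such as betaTry, Vm26Aa and Cyp12d1-d, which rest on few reads per library.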

Other observations

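Gene families with other roles also held scattered changes, given here as counts beside the 12.6% that rose and 12.3% that fell over all genes. Of 30 tetraspanin genes 6 rose and 3 fell, with a median of -0.029, and of 16 odorant binding protein genes 4 rose and 2 fell, with a median of 0.175. Of 10 genes of peritrophins, chitin-binding proteins of the gut lining and trachea, 3 rose and 1 fell, and of 13 mucin genes 1 rose and 2 fell. Of 39 Cpr cuticle genes 3 rose and 2 fell. Of 23 V-ATPase genes, which encode the proton pump of acidic compartments, 4 rose and the other 19 did not pass, with a median of 0.098, and 2 to 4 rose with 1 library left out. Of 17 genes of oxidative stress 3 rose and 2 fell, of 15 glucuronosyl transferase genes of the Ugt family 1 rose and 1 fell, and of 19 serpin genes 2 rose and 1 fell.

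Among tissue lists, 2 of 12 glial genes rose and 1 fell, 1 of 8 fat body genes rose and 1 fell, 2 of 15 germline and maternal genes rose and 1 fell, and 1 of 11 heart and visceral mesoderm genes and 1 of 23 genes of cuticle and barrier rose, with 1 fall in the second. Of 18 apoptosis and p53 genes 3 rose and 1 fell, of 17 genes of RNA silencing 1 rose and 3 fell, of 16 genes of chromatin marks 1 rose and 2 fell, and of 14 CREB and trithorax partners of CBP 1 rose and 2 fell. Of 8 genes of pigment and white transporters 2 rose and 1 fell. Of 5 respiratory chain genes and of 8 Malpighian tubule genes 0 passed with edgeR or DESeq2, and 1 and 2 of them had an unadjusted p under 0.05. No replication histone gene held enough counts to be tested.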
